A study of Homo sapiens with 10 samples.

Results

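The genes described here were 5 genes of the sodium-potassium pump: the beta subunit genes ATP1B1, ATP1B2 and ATP1B3, and the regulator genes FXYD3 and FXYD5, out of 23426 gene symbols. They were found by symbol in all 10 samples. ATP1B3 was chosen from its rise with PKC412 in ZR75-1 in these same FPKM values, and the other 4 genes were taken by name to see whether the rise was shared by its partners. Differences of ATP1B3 that rest on the ZR75-1 samples are therefore given as a description, with no test. For the PKC412 difference in ZR75-1, and for its difference between the lines, this was done for all 5 genes.

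The transcriptomes came from 2 established breast cancer cell lines, MDA-MB-468, which is basal-like, and ZR75-1, which is luminal. Each line was kept for 6 h in DMSO, the solvent (2 samples), or in 1 μM PKC412 (3 samples), without any genetic change made by the study. PKC412, also named midostaurin, is a derivative of staurosporine that inhibits many kinases, and the study used it to ask how basal-like and luminal cells differ in their response. The figure legends of the study give a lower dose than its methods and the sample labels, and the methods describe triplicates where 2 DMSO samples per line were analysed here. Each subtype was represented by a single line, so a difference between lines cannot be told apart from a difference between subtypes. The methods place the replication at the treatment of the cells and do not say whether replicates were separate passages or days, so p-values measure only the spread between these samples.

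The sodium-potassium pump exports sodium and imports potassium at the cost of ATP and so keeps the ion gradients and the volume of epithelial cells. Its alpha subunit binds the ions and splits ATP, its beta subunit is a glycoprotein that the alpha subunit needs in order to fold and reach the plasma membrane, and FXYD proteins are small membrane proteins that bind the pump and tune its ion affinity. Beta subunits also act in adhesion between cells. ATP1B1 encodes the most widespread beta isoform, ATP1B2 an isoform known from glia and neurons, ATP1B3 a further isoform of many tissues, and FXYD5 is also called dysadherin because its overproduction weakens E-cadherin adhesion.

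The promoter windows of ATP1B3 and ATP1B1 are shown because these genes supplied nearly all beta subunit transcript and behaved differently in ZR75-1. Each window runs from 250 bases before to 50 bases after the RefSeq start on GRCh38.p14, plus strand. The ATP1B3 window is chr3:141876393-141876692 and that of ATP1B1 is chr1:169106440-169106739. Capitals mark matches to the cAMP response element or CRE (TGACGTCA), to its core (TGACG), to the GC box (GGGCGG), to the CCAAT box, whose letters are its name, and to the TATA box (TATAAA), each searched on both strands. The full CRE contains the core, and no other motifs overlapped in these windows.
ATP1B3: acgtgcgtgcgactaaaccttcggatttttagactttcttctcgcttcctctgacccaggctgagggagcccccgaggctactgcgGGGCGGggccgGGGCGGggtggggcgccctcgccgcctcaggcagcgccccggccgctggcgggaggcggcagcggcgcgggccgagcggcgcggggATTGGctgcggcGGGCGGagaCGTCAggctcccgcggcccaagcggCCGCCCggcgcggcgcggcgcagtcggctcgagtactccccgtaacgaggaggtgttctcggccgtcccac
ATP1B1: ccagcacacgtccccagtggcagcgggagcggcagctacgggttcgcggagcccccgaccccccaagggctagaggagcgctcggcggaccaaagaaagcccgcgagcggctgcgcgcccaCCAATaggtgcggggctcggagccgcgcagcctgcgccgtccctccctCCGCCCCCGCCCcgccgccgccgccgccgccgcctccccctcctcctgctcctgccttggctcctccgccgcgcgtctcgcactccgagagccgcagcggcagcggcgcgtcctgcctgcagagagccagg

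In the ATP1B3 window a CRE core, on the minus strand, began 46 bases before the start, a CCAAT box 67 bases before it, and GC boxes 164, 153, 55 and 21 bases before it. The ATP1B1 window held GC boxes beginning 81 and 75 bases before the start and a CCAAT box at 129 bases before it, and no CRE core. Neither window held a full CRE or a TATA box. Of 35116 RefSeq promoter windows of this length, 24.6% held a CRE core, 1.85% a full CRE, 45% a GC box, 34.6% a CCAAT box and 11.5% a TATA box. Among the remaining windows, that of ATP1B2 held a CRE core, that of FXYD5 a GC box and that of FXYD3 none of these motifs. These matches describe letters only.

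By GENCODE 29 on GRCh38, all 5 genes are protein-coding and lie on the plus strand. ATP1B1 spans positions 169105697 to 169132722 of chromosome 1, ATP1B2 positions 7646627 to 7657768 of chromosome 17, and ATP1B3 positions 141876124 to 141926514 of chromosome 3. FXYD3 (35115879 to 35124324) and FXYD5 (35154730 to 35169883) are near neighbours on chromosome 19. The authors' values were made on hg19, so these positions locate the genes and were not used to read the files. ATP1B1 overlaps NME7 and ATP1B3 overlaps an antisense gene, both on the opposite strand. Reads of such pairs cannot be told apart unless strand was used in counting, which the sources used here do not state. FXYD3 overlaps a read-through gene model and a microRNA on its own strand, and ATP1B1 and ATP1B3 each have an annotated pseudogene elsewhere, so a share of their reads may be uncertain.

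Values were FPKM, fragment numbers scaled by transcript length and by the mapped fragments of the sample. Scaling by length allows levels of different genes to be set side by side. FPKM sums per sample ranged from 599228 to 835069, the number of reads is unknown, and precision was taken from the replicates only. The labelled subtypes showed in their markers. The 8 basal markers summed to 2502 to 2728 FPKM in MDA-MB-468 in DMSO and to 4.83 to 5.24 in ZR75-1, where KRT14 and KRT6B were below 0.1. The 9 luminal markers summed to 5565 to 6582 FPKM in MDA-MB-468 in DMSO, and ZR75-1 in DMSO had 18970 to 23360. Of the neural list, ENO2 was the gene above 1 FPKM. FPKM also leaned on transcript GC content to a different degree from sample to sample. The slope of this dependence, relative to the mean of the line and in log2 units per 10 points of GC content, was 0.37 and 0.06 in the MDA-MB-468 DMSO samples against -0.29, -0.02 and -0.12 in the PKC412 samples, and 0.31 and -0.19 against -0.11, 0.34 and -0.36 in ZR75-1. It thus split the treatments in MDA-MB-468 and crossed them in ZR75-1. As these are bulk samples, fewer cells of a kind and less RNA per cell cannot be told apart.

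In DMSO, FXYD3 and FXYD5 were the most abundant of the 5 transcripts in both lines. The main beta subunit differed, being ATP1B3 in MDA-MB-468 and ATP1B1 in ZR75-1. In MDA-MB-468 in DMSO the order by mean FPKM was FXYD3 (1034), FXYD5 (658.6), ATP1B3 (97.4), ATP1B1 (19.8) and ATP1B2 (0.12), with no overlap between the samples of neighbours. In ZR75-1 in DMSO it was FXYD3 (1170), FXYD5 (241.2), ATP1B1 (98.2), ATP1B3 (37.0) and ATP1B2 (0.038), again without overlap between neighbours. After PKC412 the order in MDA-MB-468 was kept, while in ZR75-1 ATP1B3 stood second, after FXYD3 and above every sample of FXYD5, and the samples of FXYD5 and ATP1B1 overlapped.

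**Figure D1:**
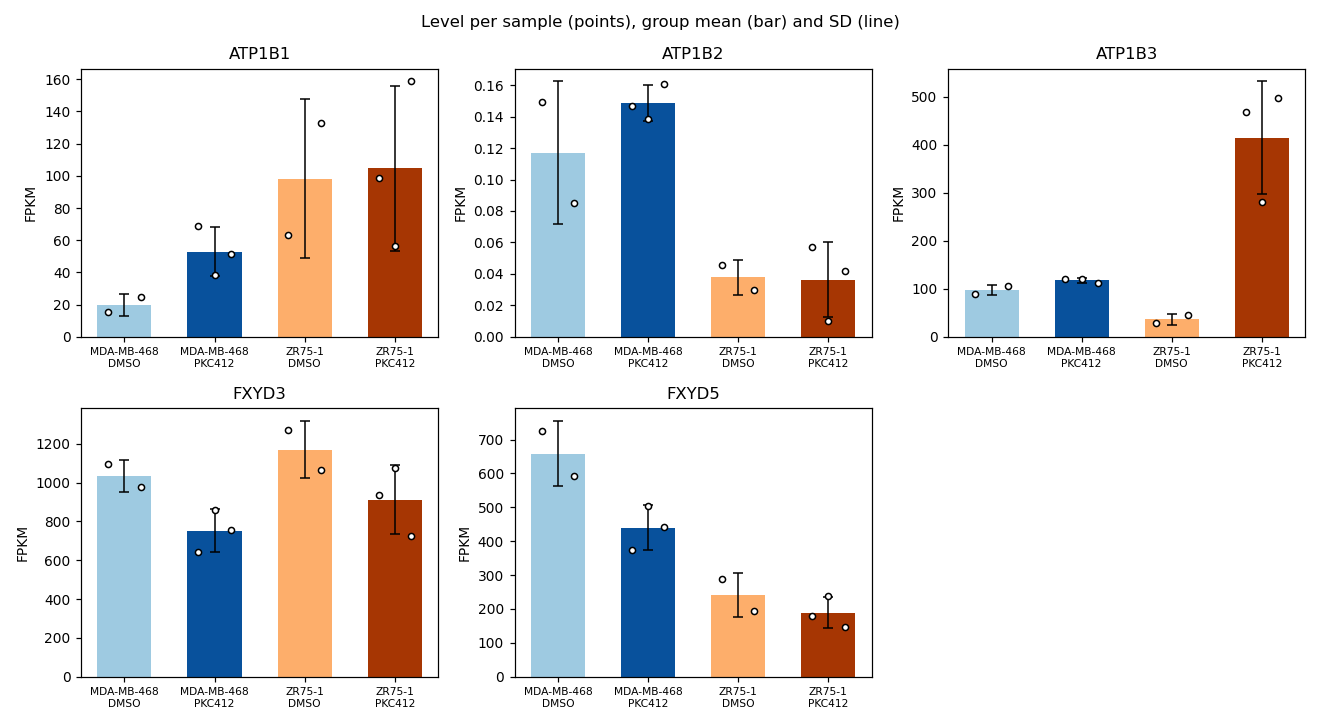
FPKM (linear axis, from 0, a separate scale for each gene) of the 5 genes in the 4 groups, with points for samples, bars for group means and lines for the SD (n = 2 in DMSO, n = 3 in PKC412). ATP1B3 in ZR75-1 rises from 28.96 and 45.1 FPKM to between 280.1 and 496.8 FPKM, while its MDA-MB-468 samples lie between 89.6 and 120.7 FPKM.

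ATP1B3 was measured in ZR75-1 at 28.96 and 45.1 FPKM in DMSO and at 467.7, 280.1 and 496.8 FPKM after PKC412. The lowest PKC412 sample was several times the highest DMSO sample. The means were 37.0 ± 11.4 (SD, n = 2) and 414.9 ± 117.6 FPKM (SD, n = 3), a ratio of 11.2, and the difference of log2(FPKM + 1) was 3.44 (SE 0.27, 95% interval 2.82 to 4.06). Among the 23426 symbols its rank from the highest level moved from 2292 and 1762 to 260, 420 and 216. Counted from the highest log2 difference it was 24th of 16071 genes. After adjustment for GC content and transcript length the DMSO samples stood at 39.1 and 36.5 FPKM and the PKC412 samples at 409.2, 378.3 and 384.8 FPKM, so that the spread within each treatment shrank and the treatments stayed far apart. As ATP1B3 was chosen on this contrast, these numbers describe it and do not test it. Markers of other cell types moved in the same samples. The 3 fibroblast markers summed to 2.25 to 2.75 FPKM in DMSO and to 6.65 to 11.1 FPKM in PKC412, which was COL1A1, as COL1A2 and COL3A1 were below 0.1 FPKM in mean. The 4 neural markers summed to 36.0 to 37.1 FPKM in DMSO and to 37.7 to 40.7 FPKM in PKC412, of which SNAP25 was at 0.011 to 0.029 FPKM in DMSO and at 0.071 to 0.50 FPKM in PKC412, and GFAP was below 0.1 FPKM in mean. The part of these markers in the result was not tested.

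In MDA-MB-468, ATP1B3 was at 89.6 and 105.2 FPKM in DMSO and at 120.7, 120.4 and 112.2 FPKM in PKC412. The groups did not overlap, but the step was small, from 97.4 ± 11.0 (SD, n = 2) to 117.8 ± 4.82 FPKM (SD, n = 3), a ratio of 1.21. The log2 difference of 0.27 (SE 0.27, 95% interval -0.34 to 0.89) was not past the threshold (limma, adjusted p = 0.55). The direction depended on scaling: it was -0.06 when samples were rescaled by median ratios over all samples and -0.10 after the GC and length adjustment. The upper end of the interval lay below the log2 difference in ZR75-1, which is a description only. The difference between the lines in the PKC412 effect was 3.17 (SE 0.38, 95% interval 2.29 to 4.04) on the log2 scale, given without a test because the ZR75-1 rise chose the gene.

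ATP1B1, the other abundant beta subunit gene, had the largest difference of the 5 in MDA-MB-468. It was at 15.1 and 24.5 FPKM in DMSO and at 69.1, 38.5 and 51.3 FPKM in PKC412. No PKC412 sample reached down to the DMSO samples. The mean went from 19.8 ± 6.64 (SD, n = 2) to 53.0 ± 15.4 FPKM (SD, n = 3), a ratio of 2.67, and the log2 difference was 1.37 (SE 0.48, 95% interval 0.26 to 2.49). With an adjusted p of 0.25 in limma it was not past the threshold. The GC slope moved along with it, since the 5 samples of MDA-MB-468 ordered by ATP1B1 were in exactly the reverse order by GC slope. After the GC and length adjustment the log2 difference was 1.03 (adjusted p = 0.084), with adjusted levels of 19.5 and 25.5 against 57.3, 38.5 and 46.1 FPKM, still without overlap.

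In ZR75-1, ATP1B1 was at 63.4 and 133.1 FPKM in DMSO and at 98.8, 56.6 and 158.7 FPKM in PKC412. The groups overlapped fully. The means were 98.2 ± 49.3 (SD, n = 2) and 104.7 ± 51.3 FPKM (SD, n = 3), and the log2 difference of 0.06 had a 95% interval from -1.05 to 1.18. This sign is not stable, and turned to -0.15 after either the GC and length adjustment or median-ratio rescaling within the line. Its 5 samples too were in reverse order of the GC slope. The interval is wide, so that a change of 1 on the log2 scale in either direction could not be told from none. Its upper end lay below the 3.44 of ATP1B3, which is a description only because ATP1B3 was chosen there. The PKC412 effect on ATP1B1 in ZR75-1 minus that in MDA-MB-468 was -1.31 (95% interval -2.88 to 0.27).

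ATP1B2 was near the floor of the data throughout. It was at 0.15 and 0.085 FPKM in DMSO and at 0.15, 0.14 and 0.16 FPKM in PKC412 in MDA-MB-468. In ZR75-1 it was at 0.046 and 0.030 FPKM in DMSO and at 0.057, 0.010 and 0.042 FPKM in PKC412. The treatments overlapped in both lines. The log2 differences were 0.04 (adjusted p = 0.55) in MDA-MB-468, which reversed on rescaling over all samples, and -0.002 in ZR75-1 (95% interval -0.09 to 0.09). With a pseudocount of 1 such low values can hardly move, and the number of reads behind them is unknown.

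**Figure D2:**
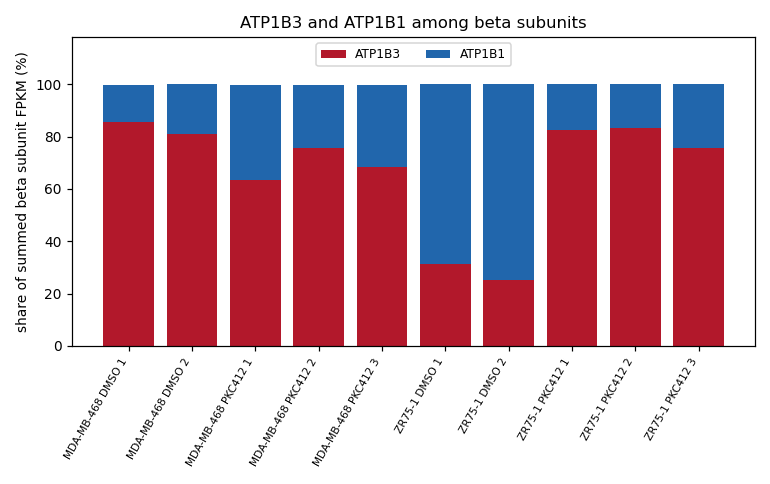
Share of ATP1B3 and ATP1B1 in the summed FPKM of ATP1B1, ATP1B2 and ATP1B3 (%, linear axis from 0), one bar per sample. ATP1B3 makes up 25.3% and 31.3% of beta FPKM in ZR75-1 in DMSO and 75.8% to 83.2% in PKC412.

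The balance of beta isoforms followed from these levels. In ZR75-1, ATP1B3 made up 31.3% and 25.3% of the summed FPKM of ATP1B1, ATP1B2 and ATP1B3 in DMSO and 82.6%, 83.2% and 75.8% after PKC412. The line thus went from mainly ATP1B1 to mainly ATP1B3. In MDA-MB-468 the share of ATP1B3 was 85.5% and 81.1% in DMSO and 63.6%, 75.7% and 68.6% in PKC412, lower in each PKC412 sample than in either DMSO sample. In ZR75-1 these shares contain ATP1B3 itself and so are a description.

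FXYD3, a regulator abundant in breast epithelium and breast tumours, was lower in each PKC412 sample of MDA-MB-468. It was at 1093 and 975 FPKM in DMSO and at 640.5, 860.7 and 754.7 FPKM in PKC412. The ratio of means was 0.73 (1034 ± 83.8, SD, n = 2, and 752 ± 110.1, SD, n = 3), and the log2 difference of -0.47 (SE 0.20) was not past the threshold (limma, adjusted p = 0.31). In ZR75-1 the samples were at 1273 and 1067 FPKM in DMSO and at 935.5, 1075 and 726.3 FPKM in PKC412. There the highest PKC412 sample lay just above the lower DMSO sample. The ratio was 0.78 (1170 ± 146.1 and 912.3 ± 175.6 FPKM) and the log2 difference -0.37 (95% interval -0.84 to 0.10).

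FXYD5 was likewise lower in each PKC412 sample of MDA-MB-468. In MDA-MB-468 it was at 726.1 and 591.1 FPKM in DMSO and at 374.3, 505.2 and 441.1 FPKM in PKC412. The groups did not overlap, the ratio of means was 0.67 (658.6 ± 95.5 and 440.2 ± 65.4 FPKM), and the log2 difference was -0.58 (SE 0.25, 95% interval -1.16 to -0.01, adjusted p = 0.30 in limma). In ZR75-1 it was at 287.3 and 195.2 FPKM in DMSO and at 179.9, 237.6 and 147.4 FPKM in PKC412. Those groups overlapped, with a ratio of 0.78 (241.2 ± 65.1 and 188.3 ± 45.7 FPKM) and a log2 difference of -0.36 (95% interval -0.93 to 0.21). FXYD5 has the highest GC content of the 5 transcripts (61.4%, against 43.1% for ATP1B3, 47% for ATP1B1, 53.1% for ATP1B2 and 53.2% for FXYD3). In MDA-MB-468 its samples were in the order of the GC slope, and after the GC and length adjustment its log2 difference was -0.31 (adjusted p = 0.20). The part of the GC slope in the differences of ATP1B1, FXYD3 and FXYD5 cannot be told apart from that of the treatment in MDA-MB-468, where the slope and the treatment split the samples alike. The summed luminal markers were lower in the same samples, at 3032 to 3967 FPKM after PKC412 in MDA-MB-468. KRT8, KRT18 and KRT19 made up most of this sum and were lower. KRT19 was at 2787 ± 340.7 (SD, n = 2) in DMSO and 1317 ± 246.3 FPKM (SD, n = 3) in PKC412. TFF1 was also lower in mean, while XBP1, AGR2, GATA3, FOXA1 and ESR1 were higher in mean. XBP1 went from 72.4 to 144.5 FPKM, and ESR1 was at only 0.16 and 0.31 FPKM. In ZR75-1 the 9 luminal markers summed to 14650 to 20240 FPKM after PKC412, overlapping DMSO. There too KRT8, KRT18 and KRT19 were lower in each PKC412 sample than in either DMSO sample. Their means were 4640, 3606 and 4422 FPKM in DMSO and 3176, 2308 and 2412 FPKM in PKC412. AGR2 and GATA3 were also lower in mean in ZR75-1, while TFF1 (4809 to 6542 FPKM), XBP1, FOXA1 and ESR1 were higher in mean. The part of these markers in the lower FXYD3 and FXYD5 was not tested.

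The ratio of FXYD3 to FXYD5 moved little with treatment. As deposited, it was higher in each PKC412 sample of MDA-MB-468 than in either DMSO sample. It was 1.51 and 1.65 in DMSO and 1.71, 1.70 and 1.71 in PKC412 in MDA-MB-468, and 4.43 and 5.46 in DMSO and 5.20, 4.53 and 4.93 in PKC412 in ZR75-1. FXYD3 thus supplied 60.1% to 63.1% of the FPKM of both genes in MDA-MB-468 and 81.6% to 84.5% in ZR75-1. After the GC and length adjustment, FXYD3 in MDA-MB-468 was at 1084 and 932 FPKM in DMSO and at 683.5, 843.2 and 761.6 in PKC412. Adjusted FXYD5 was at 603.9 and 563.9 FPKM in DMSO and at 445.4, 504.3 and 468 in PKC412. On these values the ratio was no longer higher in each PKC412 sample, so the separation depended on the processing.

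**Figure D3:**
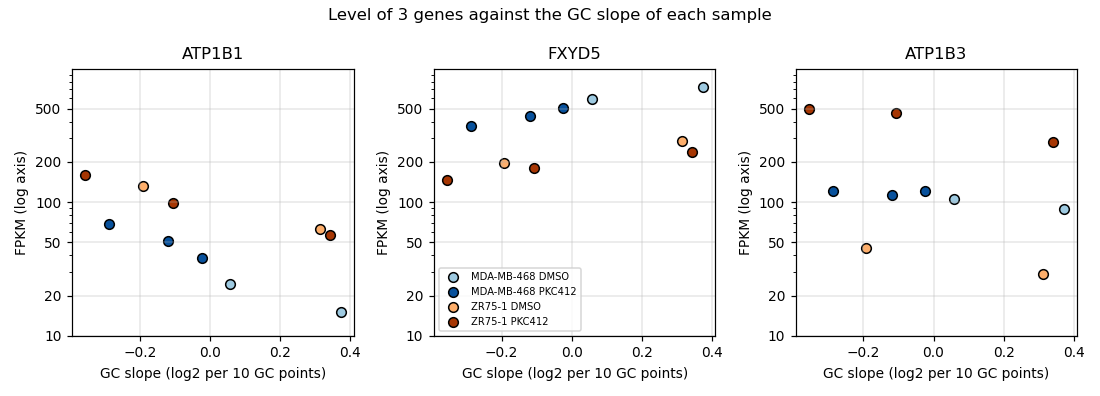
FPKM (log axis) of ATP1B1, FXYD5 and ATP1B3 against the GC slope of each sample (log2 units per 10 points of GC content, relative to the mean of its line), one point per sample and one colour per group. ATP1B1 falls and FXYD5 mostly rises along the slope within each line, whereas the PKC412 samples of ZR75-1 stand apart for ATP1B3, from 280.1 to 496.8 FPKM at slopes from -0.36 to 0.34.

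By the limma test across 16071 genes, 0 of the 5 genes were called for PKC412 in MDA-MB-468, where 1.26% of all genes were called (202, of which 111 were higher and 91 lower). At an unadjusted p under 0.05 there were 2 of 5, ATP1B1 and FXYD5, beside 16.4% of all genes. The groups did not overlap in 4 of the 5 genes, ATP1B2 being the exception, beside 55.9% of all genes. The median log2 difference was 0.04 over the 5 genes and 0.11 over all genes tested. The latter went to -0.02 when samples were rescaled over all samples, and the share of calls that were higher went from 55.0% to 38.9%, so that small differences in this line depend on the scale. In ZR75-1, ATP1B3 was the 1 gene of 5 past the threshold, beside 0.946% of all genes (152), from which nothing is read since it was chosen there. The median log2 difference in ZR75-1 was -0.002 over the 5 genes and 0.07 over all genes. When a 3-fold change of the mean FPKM in either direction was asked for, 0 of 5 were past it in MDA-MB-468 (7.21% of genes with a mean above 0.1) and ATP1B3 alone in ZR75-1 (4.09%). ATP1B1 in MDA-MB-468 came closest to that rule, and its ratio rose to 3.50 when DMSO replicate 2 was left out.

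**Figure D4:**
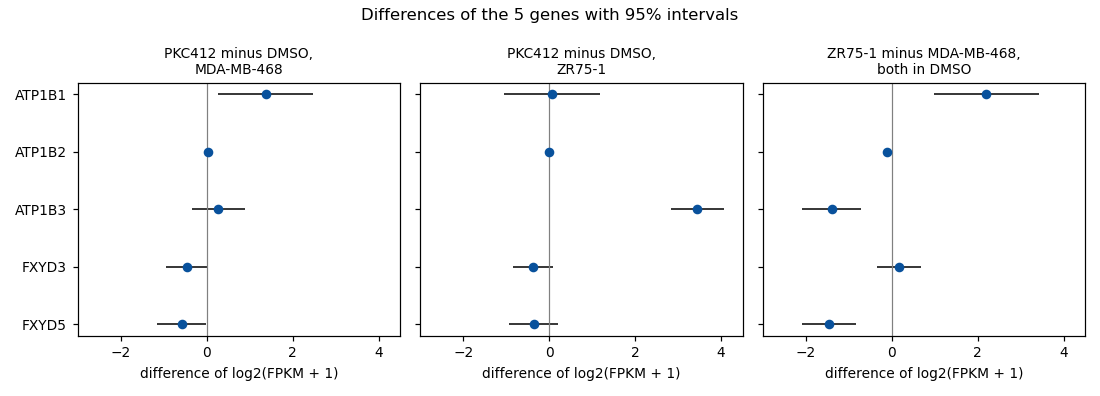
Differences of log2(FPKM + 1) of the 5 genes (points) with their 95% intervals from limma (lines), for PKC412 minus DMSO in MDA-MB-468 (left) and ZR75-1 (middle) and for ZR75-1 minus MDA-MB-468 in DMSO (right). In ZR75-1 ATP1B3 is at 3.44 (interval 2.82 to 4.06), a description and no test, because the gene was chosen on this contrast. Of the other 4 genes there, the highest interval ends at 1.18.

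Between the lines in DMSO, ATP1B1 was higher in ZR75-1 and FXYD5 in MDA-MB-468. The mean FPKM of ATP1B1 was 4.96 times that of MDA-MB-468 and the log2 difference, ZR75-1 minus MDA-MB-468, was 2.20 (SE 0.53, adjusted p = 0.01). Single samples carried weight here, as the call was lost without MDA-MB-468 DMSO replicate 1 (1.87, adjusted p = 0.071) or without ZR75-1 DMSO replicate 2 (1.67, adjusted p = 0.068). FXYD5 was 2.73 times higher in MDA-MB-468, with a log2 difference of -1.46 (SE 0.27, adjusted p = 0.0029). It was not past the threshold after rescaling over all samples (-1.16, limma adjusted p = 0.10). FXYD3 was alike in level, with a log2 difference of 0.17 (95% interval -0.34 to 0.69, adjusted p = 0.58). ATP1B2 differed by -0.11, given without a p because it passed the filter on low FPKM only through MDA-MB-468.

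ATP1B3 was 2.63 times higher in MDA-MB-468 than in ZR75-1 in DMSO and 3.52 times higher in ZR75-1 than in MDA-MB-468 after PKC412. The log2 difference in DMSO was -1.40 (SE 0.29, 95% interval -2.08 to -0.73), given without a p because the ZR75-1 DMSO samples also entered the contrast on which the gene was chosen. Of the other 4 genes, 2 were past the threshold, ATP1B1 higher and FXYD5 lower in ZR75-1, beside 42.4% of all genes (2556 higher and 4266 lower, a share of higher calls of 37.5% that became 47.5% on rescaling over all samples). The median log2 difference was -0.11 over the 5 genes and -0.11 over all genes. A share of this size among so few genes is no result about them.

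The remaining beta and FXYD genes showed no difference past the threshold with PKC412. ATP1B4, the last of the 4 beta subunit genes, had means of at most 0.018 FPKM and was not tested. Of 7 FXYD genes 4 could be tested, 0 were called with PKC412 in either line (1 at an unadjusted p under 0.05 in each), and between lines FXYD6 was lower in ZR75-1 (-1.42, adjusted p = 0.00019) along with FXYD5. None of 3 H,K-ATPase genes passed the filter. NKAIN1, whose protein binds the pump's beta subunit, was the 1 testable gene of 4 in its family. In DMSO it was at 0.11 ± 0.03 FPKM (SD, n = 2) in MDA-MB-468, against 24.7 ± 1.16 FPKM (SD, n = 2) in ZR75-1, a log2 difference of 4.53 (adjusted p = 6.35e-07), and it differed by 0.02 with PKC412 in ZR75-1.

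**Figure D5:**
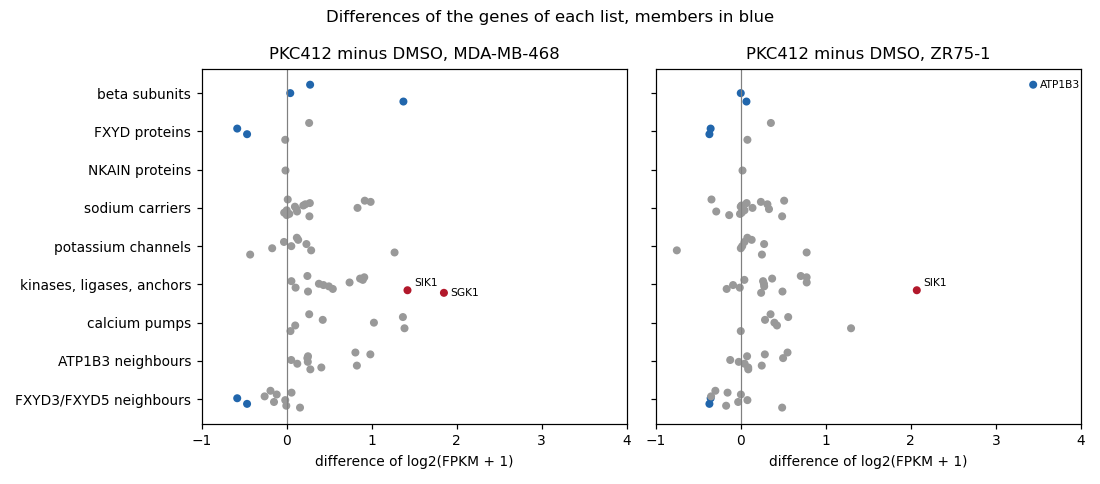
Differences of log2(FPKM + 1), PKC412 minus DMSO, for the testable genes of 9 lists (1 point per gene) in MDA-MB-468 (left) and ZR75-1 (right). Blue points are the 5 genes described, red points are other genes past the threshold in limma, grey points are the rest, and ATP1B3 in ZR75-1 at 3.44 lies to the right of every other point.

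Genes that move sodium and potassium or act on the pump were taken as lists. Of 15 testable sodium channels and sodium-coupled carriers 0 were called with PKC412 in limma in either line (0 and 2 at an unadjusted p under 0.05), with medians of 0.12 (MDA-MB-468) and 0.04 (ZR75-1) beside 0.11 and 0.07 over all genes. Of 9 potassium channels and cotransporters 0 were called (1 in each line at an unadjusted p under 0.05), from KCNN4 at -0.43 to KCNK1 at 1.27 in MDA-MB-468 and from KCNK5 at -0.75 to KCNK1 at 0.77 in ZR75-1. Of 7 calcium pumps, relatives of the sodium pump's alpha subunit, 0 were called (1 in each line at an unadjusted p under 0.05), and ATP2A2 had the highest values, 1.39 and 1.30.

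Of 14 kinases, ubiquitin ligases and anchors that act on the pump or on sodium transport, 0 were called lower with PKC412, while SIK1 and SGK1 (2 of 14) rose in MDA-MB-468, beside 1.26% of all genes called, and SIK1 (1 of 14) rose in ZR75-1, beside 0.946%. The list was chosen with earlier results of these data known, so these counts are a description and nothing is read from them. SIK1, a kinase of the AMPK family that has been tied to sodium sensing, rose in both lines. It was at 1.97 and 2.52 FPKM in DMSO and at 9.28, 6.12 and 7.88 FPKM in PKC412 in MDA-MB-468 (1.42, adjusted p = 0.022), and at 0.40 and 0.55 against 4.58, 4.72 and 6.39 FPKM in ZR75-1 (2.07, adjusted p = 0.0048). SGK1, a kinase that raises sodium transport in epithelia, rose in MDA-MB-468 from 0.83 and 2.04 to 9.87, 5.57 and 7.62 FPKM (1.85, adjusted p = 0.018). Ordered by SIK1 or by SGK1, the MDA-MB-468 samples were in exactly the reverse order by GC slope. The part of the slope in these 2 rises cannot be told apart from that of the treatment in that line. In ZR75-1 SGK1 differed by 0.24 (adjusted p = 0.81) at levels below 0.42 FPKM, and the difference between the lines did not pass either (-1.61, adjusted p = 0.22). This list had a median of 0.52 in MDA-MB-468, and of 0.27 in ZR75-1, beside 0.11 and 0.07 over all genes, and ran down to -0.17 (NEDD4) in ZR75-1. The part of the GC slope in the MDA-MB-468 median cannot be told apart from that of the treatment either. Between the lines in DMSO, SCNN1B, of the epithelial sodium channel, had the highest difference of the sodium list (3.86), and the potassium channel gene KCNN4 the lowest of the potassium list (-3.14).

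The chromosomal neighbours of ATP1B3 did not pass the test. Of 10 testable genes around it on chromosome 3, 0 were called with PKC412 in limma in either line (1 in ZR75-1 and 2 in MDA-MB-468 at an unadjusted p under 0.05). Their log2 differences in ZR75-1 ran from -0.13 (TFDP2) to 0.55 (ACPL2). TFDP2 is the next protein-coding gene on one side of ATP1B3 and GRK7 on the other, and GRK7, with means of at most 0.024 FPKM, was not tested. RNF7, beyond GRK7, differed by 0.50 (adjusted p = 0.27). Around FXYD3 and FXYD5 on chromosome 19, 0 of 10 testable genes, these 2 included, were called in either line (2 in MDA-MB-468 and 3 in ZR75-1 at an unadjusted p under 0.05), and in ZR75-1 they ran from -0.37 (FXYD3) to 0.49 (GRAMD1A).

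Across the 10 samples, with each sample centred on the mean of its line, the genes most like each of the 5 were found by Pearson's r of log2(FPKM + 1) among 11144 genes. These r are a description over samples that share their libraries and their GC slopes. Those of ATP1B3 also rest on the ZR75-1 rise on which the gene was chosen. ATP1B3 was most like CGA (0.994), SMOC2 (0.988) and GNG4 (0.987). CGA went from 21.8 ± 8.21 (SD, n = 2) to 437.2 ± 63.9 FPKM (SD, n = 3) with PKC412 in ZR75-1, and SMOC2 from 3.30 ± 1.07 to 13.5 ± 1.87 FPKM. ATP1B1 was most like KDELC2, DEK and ING3 (0.99 each), FXYD3 most like S100A6, RPLP1 and RPL27A (0.99 each), and FXYD5 most like PKP3 (0.996), STYXL1 (0.995) and DDRGK1 (0.993). For ATP1B2, at its low level, the first were SNORD80 (0.89), MIR29C (0.86) and RAD9A (0.85).

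Within the family, FXYD3 and FXYD5 varied together (r = 0.97) and ATP1B1 varied against both (-0.87 with FXYD3 and -0.94 with FXYD5), in the direction of the GC slopes. ATP1B3 and ATP1B1 had an r of 0.21, ATP1B1 being 6069th of the 11144 genes by likeness to ATP1B3. This is a description only, because ATP1B3 was chosen on its rise in ZR75-1.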

How the data were processed

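RNA-seq of 10 samples was analysed (2 DMSO and 3 PKC412 per line, 6 h). Per the labels, CASAVA 1.82, TopHat2 and hg19 were used, and the authors deposited FPKM per gene symbol from an in-house pipeline. No read counts were used, so depth is unknown and no counting interval is given. Groups came from the sample labels.

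The value of each gene was log2(FPKM + 1). The 16071 of 23426 genes whose mean FPKM exceeded 0.1 in any group were fitted with limma 3.58.1 in R 4.3.3, with a mean for each of the 4 groups (6 residual degrees of freedom), eBayes with a trend and Benjamini-Hochberg adjustment over all genes at 0.05. The fit was tested on simulated data. Log2 differences of low genes are understated by the pseudocount of 1. Ratios of mean FPKM carry no test. With 2 samples against 3 an exact permutation test cannot go below 0.1, and none was used. Positions, lengths and GC content were matched by symbol from GENCODE 29 (20638 symbols, 88.1%), and promoters came from RefSeq. To adjust for GC content, each sample's deviation from its line mean was modelled by polynomials (degree 3) in transcript GC content and log2 length, which were then divided out.

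The 5 genes and all lists were chosen with earlier results of these data known. The text names the 5 genes, the called and the most extreme genes of each list, and the 3 most similar genes above a mean of 1 FPKM, and also the neighbours RNF7 and GRK7, which were named after their values were seen. Gene models not analysed here were ATP1B3-AS1 and SLC8B1, and some listed genes are not reported here. Alternatives were other pseudocounts and filters, median-ratio rescaling, the GC adjustment, a replicate block, separate fits of the lines, eBayes without the trend and leaving out each sample. Python 3.11.15 with pandas 2.3.3 and matplotlib 3.10.9 was used for the rest.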

Additional observations from a re-analysis of the deposited data

Results flagged for a closer look

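The PKC412 effect on ATP1B3 differed between the lines by 3.17 on the log2 scale (ZR75-1 minus MDA-MB-468, SE 0.38). It stands out because the effect of the same agent, 3.44 in ZR75-1 and 0.27 in MDA-MB-468, was unequal in the 2 lines. In ZR75-1 the PKC412 samples were at 280.1 to 496.8 FPKM against 28.96 and 45.1 FPKM in DMSO, and in MDA-MB-468 at 112.2 to 120.7 FPKM against 89.6 and 105.2 FPKM. The gene was chosen on its ZR75-1 rise, so no p is given. The value ranged from 2.86 to 3.48 with any 1 sample left out.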

How the results depend on the processing

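Of the recomputed log2 differences of the 5 genes, 358 kept their direction and their side of the threshold, 18 turned in direction, 14 lost a call and 1 gained one. The cause of these changes was not tested. The rise of ATP1B3 in ZR75-1 lay between 3.13 and 3.75 under all alternatives.

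Direction turned as follows. With median-ratio rescaling over all samples, ATP1B2 was at -0.00083 and ATP1B3 at -0.056 in MDA-MB-468, and ATP1B1 at -0.14 in ZR75-1. With rescaling within each line ATP1B1 was at -0.15 in ZR75-1. With the GC and length adjustment ATP1B3 was at -0.10 in MDA-MB-468 and ATP1B1 at -0.15 in ZR75-1. Leaving out 1 sample gave ranges of -0.00036 to 0.083 for ATP1B2 in MDA-MB-468, -0.46 to 0.59 for ATP1B1 and -0.017 to 0.016 for ATP1B2 in ZR75-1, and, for the difference between the lines, -0.032 to 0.25 for FXYD3 and -0.051 to 0.50 for FXYD5. Between the lines in DMSO, ATP1B2 (-0.11, adjusted p = 0.031 in limma) was called without the filter.

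The samples were not treated as paired by replicate number. Deviations of same-numbered samples correlated at -0.18 and -0.13 in MDA-MB-468 and at -0.02 and -0.39 in ZR75-1. With 2 DMSO samples per line their deviations mirror each other, so the correlations of a line are not independent. They cannot settle whether samples were paired. The fit with the replicate block leaves 2 residual degrees of freedom and fits PKC412 replicate 3 exactly. In it 0 of 5 genes were called in ZR75-1 and 0 for the difference between the lines, as over all genes (0 in each contrast), ATP1B3 was at 3.29 in ZR75-1, the difference at 2.98 and ATP1B1 at -0.29 in ZR75-1. With the block and the GC adjustment together, 0 of 5 were called in ZR75-1 and 0 for the difference, 3 genes were called over all genes in each contrast, ATP1B3 was at 3.35 in ZR75-1 and -0.077 in MDA-MB-468, the difference was 3.42 and ATP1B1 was at -0.35 in ZR75-1. Fitting ZR75-1 alone also left 0 of 5 called. In ZR75-1 and for the difference between the lines, nothing is read from these counts, since ATP1B3 was chosen there.

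With 1 sample left out, the number of the 5 genes called for the difference between the lines ranged from 0 to 1. The number past 3-fold in MDA-MB-468 ranged from 0 to 1 (ATP1B1, without DMSO replicate 2 or PKC412 replicate 2). Over all genes, calls in MDA-MB-468 went from 202 to 116 and 103 with pseudocounts of 0.1 and 0.01, 581 with the GC adjustment, 67 in the line alone and 65 to 333 with 1 sample left out. Calls in ZR75-1 went from 152 to 456, 2 and 58 to 182 under the last 3 of these. For the difference between the lines, 43 became 27 and 24 with the pseudocounts, 68 without the filter or without the trend, 209 with the GC adjustment and 16 to 62 with 1 sample left out.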
